A study of Mus musculus with 12 samples.

Results

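A set of 10 genes of sugar metabolism and oxygen response were followed in mesenchymal cells of mice that lacked, or kept, the estrogen receptor alpha gene Esr1. They were selected by name: the glucose carrier Slc2a1, the glycolytic enzyme genes Aldoa, Tpi1, Gapdh, Pgk1, Pgam1, Eno1, Pkm and Ldha, and the growth factor gene Vegfa. These are 10 of the 25655 genes in each of 2 tables, 1 for muscle and 1 for bone. By exact name 9 were found. Aldoa was listed as 2 rows, Aldoa_1 and Aldoa_2, and was matched by the Ensembl identifier of its main gene model to Aldoa_1, the row used below. Aldoa_2, a second model upstream on chromosome 7 that GENCODE also names Aldoa, is listed at 0 in both tables. All 10 genes had a p and an FDR in both tables.

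Glycolysis splits glucose into pyruvate through a fixed chain of cytosolic enzymes and yields ATP without oxygen. When oxygen is scarce, hypoxia-inducible factors escape degradation and switch on many of these enzymes, the glucose carrier, and Vegfa, whose product makes new vessels grow. Mesenchymal progenitors of bone and muscle and their osteoblast descendants use glycolysis heavily, and the marrow is a tissue of low oxygen.

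The cells were sorted by the surface receptor PDGFRα, which marks mesenchymal stromal and progenitor cells, and their RNA was read at transcript 3' ends. The 12 samples fall into 4 groups of 3. Esr1 knockout samples of muscle and of bone all came from mice with the Cre recombinase PDGFRα-CreER and both Esr1 alleles floxed (Esr1flox/flox). CreER is a Cre that works only once tamoxifen is given, here under the control of Pdgfra, so that cells that do not express Pdgfra keep Esr1. Muscle control replicates 1 and 2 carried PDGFRα-CreER alone, and replicate 3 carried it with 1 floxed allele (Esr1flox/+). Bone control replicates 2 and 3 carried PDGFRα-CreER alone, and replicate 1 had Esr1flox/flox without the Cre. The sort kept PDGFRα+ cells that lacked the blood cell marker CD45 and the endothelial marker CD31 in both tissues (CD45-, CD31-), and in muscle also the satellite cell marker Vcam1 (Vcam1-). Age, sex, tamoxifen dose and the number of animals behind a sample are not stated in the sample labels, while the series title speaks of female mice.

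Each gene's values here are the authors' own comparison of knockout with control within a tissue: a log2 fold change (positive when higher in the knockout), a p, an FDR and the larger of the 2 group means, whose unit and group are not named. Columns with values of single libraries carry laboratory codes that match no sample label. They were not used, so no level per sample or per group, no depth and no standard deviation between replicates can be given. As a guide to precision, a standard error and a 95% interval were computed for each gene from its fold change and its p, taking the p as that of a two-sided normal test. Nothing in the labels says that replicates came from separate animals, so the spread behind the p-values is that of these samples and could be technical.

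The 10 genes are protein-coding and lie on 7 chromosomes of GRCm38. In the order of the pathway, Slc2a1 (ENSMUSG00000028645) is at chromosome 4, 119108711 to 119137983, Aldoa (ENSMUSG00000030695) at chromosome 7, 126795234 to 126800751, and Tpi1 (ENSMUSG00000023456) at chromosome 6, 124810586 to 124814296. Gapdh (ENSMUSG00000057666) is at chromosome 6, 125161715 to 125166467, Pgk1 (ENSMUSG00000062070) at chromosome X, 106187100 to 106203699, and Pgam1 (ENSMUSG00000011752) at chromosome 19, 41911923 to 41918660. Eno1 (ENSMUSG00000063524) is at chromosome 4, 150236721 to 150248879, Pkm (ENSMUSG00000032294) at chromosome 9, 59656368 to 59679375, Ldha (ENSMUSG00000063229) at chromosome 7, 46841475 to 46855627, and Vegfa (ENSMUSG00000023951) at chromosome 17, 46016993 to 46032369.

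Most of these genes hold a short hypoxia motif at their promoters, whose letters were not used to choose them, although their known response to low oxygen was. Hypoxia-inducible factors bind a core of ACGTG or GCGTG. RefSeq start sites gave 17 windows of 300 bases for the 10 genes (250 bases before the start and 50 after, GRCm38.p6). On either strand, ACGTG occurred in 9 of the 17 windows (52.9%), against 19.6% of all 32851 promoter windows of the same length. GCGTG also occurred in 9 of the 17 (52.9%), against 32.4% of all windows, and 13 of the 17 (76.5%) held one or the other, against 43.8%. Windows of 1 gene can overlap, so they are not separate observations. By gene, 8 of 10 had ACGTG in some window. A gene with more windows has more room for a match, and no share by gene was computed over all genes. Eno1 had GCGTG alone, and Tpi1 had neither. ACGTG is also part of CACGTG, the E-box that MYC and USF factors bind, and the pair of CACGTG sites in Ldha are of this kind. The full palindromic estrogen response element was found in 0 of the 17 windows and in 0.07% of all windows. A match only says that these letters are present.

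The most upstream windows of 4 genes are shown because they span this range: Ldha with the most matches, Pgk1 with a pair, Eno1 with GCGTG alone and Tpi1 with none. Each reads 5′ to 3′ on the gene's strand, and capitals mark ACGTG or GCGTG on either strand, so that CACGT and CACGC are reverse matches.
Ldha, chr7:46845554-46845853, plus strand: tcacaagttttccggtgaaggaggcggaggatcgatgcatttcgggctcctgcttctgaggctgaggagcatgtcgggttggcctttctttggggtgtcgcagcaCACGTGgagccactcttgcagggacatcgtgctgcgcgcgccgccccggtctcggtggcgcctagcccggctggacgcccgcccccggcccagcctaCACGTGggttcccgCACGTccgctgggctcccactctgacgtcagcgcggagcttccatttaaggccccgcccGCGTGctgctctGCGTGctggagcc
Pgk1, chrX:106186850-106187149, plus strand: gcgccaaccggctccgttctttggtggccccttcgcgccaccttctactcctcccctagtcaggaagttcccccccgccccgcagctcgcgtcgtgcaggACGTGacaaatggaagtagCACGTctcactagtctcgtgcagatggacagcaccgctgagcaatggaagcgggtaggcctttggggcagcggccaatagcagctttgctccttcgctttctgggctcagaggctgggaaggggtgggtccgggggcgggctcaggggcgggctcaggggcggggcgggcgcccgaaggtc
Eno1, chr4:150236458-150236757, plus strand: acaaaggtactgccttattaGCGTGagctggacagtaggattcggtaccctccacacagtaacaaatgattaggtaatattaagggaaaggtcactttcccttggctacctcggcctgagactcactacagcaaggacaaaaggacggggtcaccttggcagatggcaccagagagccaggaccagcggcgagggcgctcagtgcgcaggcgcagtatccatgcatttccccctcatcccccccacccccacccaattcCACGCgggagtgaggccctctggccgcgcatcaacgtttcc
Tpi1, chr6:124814109-124814408, minus strand: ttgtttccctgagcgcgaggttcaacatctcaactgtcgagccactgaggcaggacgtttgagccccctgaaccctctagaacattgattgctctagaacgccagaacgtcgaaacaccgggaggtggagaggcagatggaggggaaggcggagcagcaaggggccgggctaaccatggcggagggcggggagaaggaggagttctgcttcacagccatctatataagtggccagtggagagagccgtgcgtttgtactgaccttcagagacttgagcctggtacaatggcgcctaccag

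For Esr1 itself the authors' deposited tables gave log2 fold changes of 1.02 for muscle (p = 0.404) and -2.69 for bone (p = 0.245). A 3' tag may lie outside the deleted part, so these values check no label. In bone, markers of blood cells were high: the 9 red cell markers found had summed larger group means of 689711, against 2941 for the 12 stromal markers, and 8 of the 9 had a positive log2 fold change in the authors' deposited table. All 10 neutrophil markers in bone had a positive value there, 8 at an unadjusted p under 0.05, and 1 was called at an FDR of 0.05. Of the macrophage and pan-leukocyte markers in bone, 9 of 10 were positive, 6 at that p. Of these 6, 5 lay on a steep edge described below, where a fold change is no estimate of size. Among all bone genes with a p, 69.7% were positive and 28.8% were positive at that p. Of those with an FDR, 0.0352% were called. Ptprc, which encodes the CD45 that the sort selected against, had a larger group mean of 23.1 in the authors' deposited bone table, against 8.60 for the sorting marker Pdgfra. Listed at 0 in bone were 5 of 8 endothelial and 6 of 12 muscle fibre markers. In muscle, the stromal markers summed to 58401, and 11 of 12 had a positive log2 fold change in the authors' deposited table, 4 at an unadjusted p under 0.05 and 1 of them called. Among all muscle genes with a p, 53.5% were positive and 6.41% were positive at that p, and 0.127% of those with an FDR were called. Red cell markers in muscle summed to 3983 (2 of 8 with a p positive), muscle fibre markers to 171 (6 of 11 positive) and endothelial markers to 112 (3 of 8 positive). Macrophage and pan-leukocyte markers in muscle summed to 94.1 (8 of 10 positive) and neutrophil markers to 35.1 (4 of 7 positive). Blood cells and muscle fibres both carry glycolytic transcripts, and the part of either in the values below was not tested. In bulk samples, fewer cells of a type and less RNA per cell cannot be told apart.

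In muscle, none of the 10 genes was called between Esr1 knockout and control cells. Most of the chain had values close to 0: 7 of 10 genes had a log2 fold change between -0.5 and 0.5, and the median was 0.018, against 0.12 for all 13158 genes with a p. At the authors' FDR of 0.05, 0 of the 10 passed (0.127% of all 7107 genes with an FDR passed), and at an FDR of 0.1 it was also 0 (0.183% of all). An unadjusted p under 0.05 was seen for 0 of the 10, while 11.7% of all genes with a p had one. With the authors' p adjusted anew, 0 of the 10 passed over all genes (0.0456% of all passed), and 0 over genes whose larger group mean reached 10 (0.110%). Over genes of at least 50, which leaves out Eno1 and Gapdh, 0 of the remaining 8 passed (0.254%). The values were positive for 5 and negative for 5 of the 10 (53.5% of all genes were positive), and measured from the median of all genes Pgk1, Pgam1 and Pkm turned negative.

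Lactate dehydrogenase, aldolase, phosphoglycerate mutase and pyruvate kinase were the most precisely measured in muscle, with implied standard errors of 0.51 to 0.60 on the log2 scale. For Ldha, whose enzyme turns pyruvate into lactate, the authors' deposited table gave -0.12 (p = 0.810, interval -1.11 to 0.87). On the linear scale this interval runs from 0.462-fold to 1.83-fold, which leaves out a doubling and just takes in a halving. For Pgam1, the mutase that shifts the phosphate before enolase acts, the authors' deposited table gave 0.10 (p = 0.856, interval -1.02 to 1.23). For Pkm, the kinase gene of the last ATP-making step, it was 0.079 in the authors' deposited table (p = 0.895, interval -1.10 to 1.26). Pgk1, the kinase gene of the first ATP-making step, stood at 0.049 in the authors' deposited table (p = 0.949, interval -1.46 to 1.56). A p that misses the threshold does not show that levels were alike in knockout and control cells.

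Aldolase stood furthest from 0 relative to its error. For Aldoa, which splits the phosphorylated hexose, the authors' deposited table gave -1.02 in muscle (p = 0.0732, FDR = 0.915), with an implied standard error of 0.57 and an interval of -2.13 to 0.096. Eno1, the enolase gene, had the highest value of the 10, listed as 1.77 in the authors' deposited table (p = 0.297), with a wide interval of -1.55 to 5.09. Vegfa had the lowest, listed as -1.13 in the authors' deposited table (p = 0.230, interval -2.98 to 0.72). The remaining genes lay between these. Slc2a1, which encodes the glucose carrier GLUT1, stood at -0.48 in the authors' deposited table (p = 0.698, interval -2.87 to 1.92). Tpi1, which interconverts the triose phosphates, stood at 0.37 in the authors' deposited table (p = 0.674, interval -1.36 to 2.11). Gapdh, the dehydrogenase gene that follows and a common reference gene, stood at -0.014 in the authors' deposited table (p = 0.991), but with an interval of -2.56 to 2.54. Intervals of 7 of the 10 genes in muscle took in both a doubling and a halving.

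**Figure D1:**
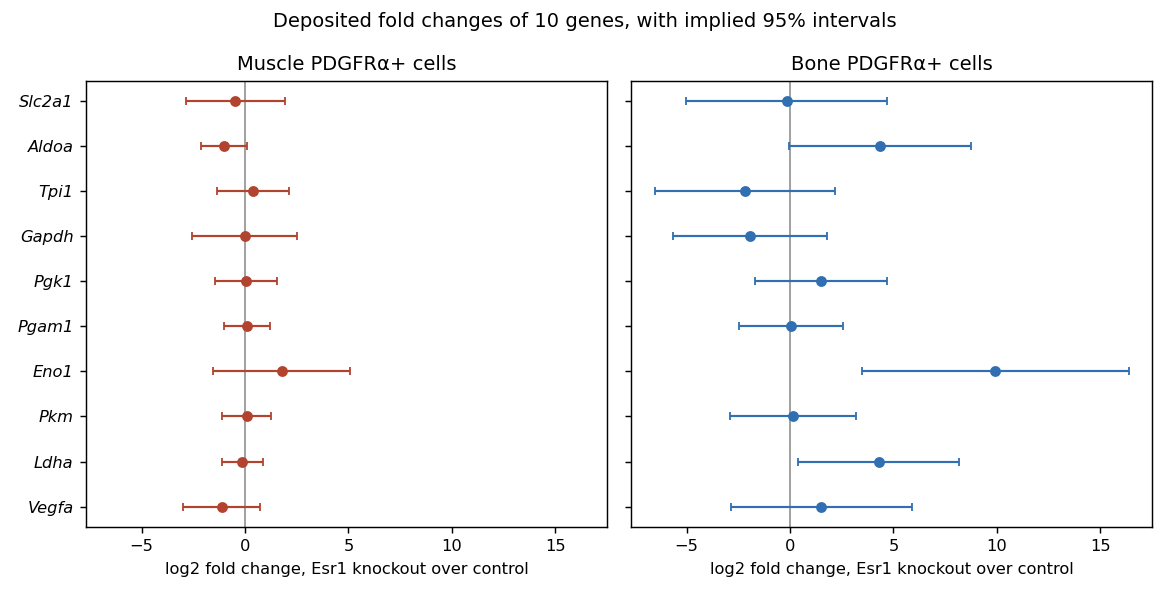
Log2 fold changes of the 10 genes, Esr1 knockout over control, in muscle (left) and bone (right), with genes down the page in pathway order. Points are the authors' deposited values and bars are the 95% intervals implied by the deposited p. All 10 muscle intervals cross 0, while in bone those of Eno1 and Ldha do not.

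In bone the 10 genes spread much more widely, and again none was called. Enolase, aldolase and lactate dehydrogenase had the highest values of Esr1 knockout over control cells, and the genes of the triose steps, Tpi1 and Gapdh, had the lowest. At the authors' FDR of 0.05, 0 of the 10 passed (0.0352% of all 8534 genes with an FDR passed). At an FDR of 0.1, Eno1 and Ldha passed, 2 of 10, as did 32.2% of all genes. The same 2 had an unadjusted p under 0.05 with a positive value, against 28.8% of all 10518 genes with a p, and 0 of 10 had one with a negative value, against 4.20%; in either direction the share of all genes was 33.0%. The share among the 10 was thus no larger than among all genes, a background that is not matched for level. In the bone band from 50 to 100, which holds Ldha and 6 of the 10 in all, 9.84% had such a p in either direction. In the band from 20 to 50, which holds Eno1, it was 23.3%, and in the lowest band, which holds Vegfa, 40.0%. Whether the 10 differ from genes of like level was not tested. With the authors' p adjusted anew, 0 of the 10 passed over all genes (0.0285% of all passed), and 1 (Eno1) over genes whose larger group mean reached 10 (14.1% of these passed), which leaves out Vegfa. Over genes of at least 50, which also leaves out Eno1, Aldoa and Slc2a1, 0 of the remaining 6 passed (0.605%). Positive values numbered 7 of 10, against 69.7% of all genes, but measured from the median of all genes Pgk1, Pgam1, Pkm and Vegfa turned negative while Eno1, Ldha and Aldoa stayed positive. The median of the 10 was 0.83, against 2.51 for all genes, but bone medians differ by level. Of the 10, 6 had a larger group mean above 50 to 100, where the median of all bone genes was -0.50. Another 3 lay above 20 to 50, where it was 0.015, and Vegfa lay in the band up to 10, where it was 4.99.

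For Eno1, the authors' deposited table gave 9.93 in bone (p = 0.00254, FDR = 0.0784, larger group mean 27.5), with an implied standard error of 3.29 and an interval of 3.48 to 16.4. This value lay on a steep edge of the table where the fold change follows the level of a gene. The edge shows when the log2 of the larger group mean is taken from the size of the log2 fold change. Positive bone genes then fell above 4 or below it, and 0 of 6012 with a larger group mean above 1 lay within 0.25 of that limit. Some genes counted as off the edge stood not far under it, such as Ldhb at 3.10 and Pdgfa at 3.08. For negative bone values the limit was 3, and in muscle it was 4 for both signs. Eno1 stood at 5.14, and the other 9 genes in bone and all 10 in muscle lay off the edge. Of the 3032 bone genes with a positive value and an unadjusted p under 0.05, 2655 (87.6%) were on it, and among those with a larger group mean above 20 to 50, where Eno1 lies, 63.5% were. A fold change there is set by the level and is no estimate of size. Which samples held the Eno1 reads was not analysed here. The edge was defined after the values were seen.

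Ldha and Aldoa lay off that edge at lower but still high values. For Ldha, the authors' deposited table gave 4.28 in bone (p = 0.0312, FDR = 0.0988, larger group mean 68.7), with an implied standard error of 1.98 and an interval of 0.39 to 8.17. On the linear scale this runs from 1.31-fold to 287-fold, so the size is hardly fixed. For Aldoa, the authors' deposited table gave 4.36 in bone (p = 0.0522, FDR = 0.126, larger group mean 46.0), with an implied standard error of 2.24 and an interval of -0.042 to 8.75. Neutrophil and macrophage markers in bone were positive in nearly all cases beside these genes, as given above. Of all bone genes 69.7% were positive, and of those with a larger group mean above 100, where the median neutrophil marker lies, 51.6%. The part of these cells in the values of Eno1, Ldha and Aldoa was not tested.

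The rest of the chain in bone had intervals that took in both signs. For Pgk1, the authors' deposited table gave 1.5 (p = 0.356, interval -1.68 to 4.68). Pgam1 stood at 0.044 in the authors' deposited table (p = 0.973, interval -2.48 to 2.57) and Pkm at 0.16 (p = 0.920, interval -2.88 to 3.19), both near 0 as in muscle but known less exactly. The triose genes were the low end. Tpi1 stood at -2.18 in the authors' deposited table (p = 0.324, interval -6.53 to 2.16) and Gapdh at -1.93 (p = 0.311, interval -5.66 to 1.80). Slc2a1 stood at -0.16 in the authors' deposited table (p = 0.948, interval -5.02 to 4.70). For Vegfa, the authors' deposited table gave 1.51 (p = 0.499, interval -2.86 to 5.88), where the larger group mean was 1.74, the lowest of the 10 in either tissue. Of the 10 genes, 6 had a larger group mean above 50 to 100. In that range 38.3% of 915 bone genes were positive and the median log2 fold change was -0.50, whereas 84.3% of the 5455 bone genes with a larger group mean up to 10 were positive. The median implied standard error of the 10 genes was 2.10 in bone, against 0.83 in muscle.

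**Figure D2:**
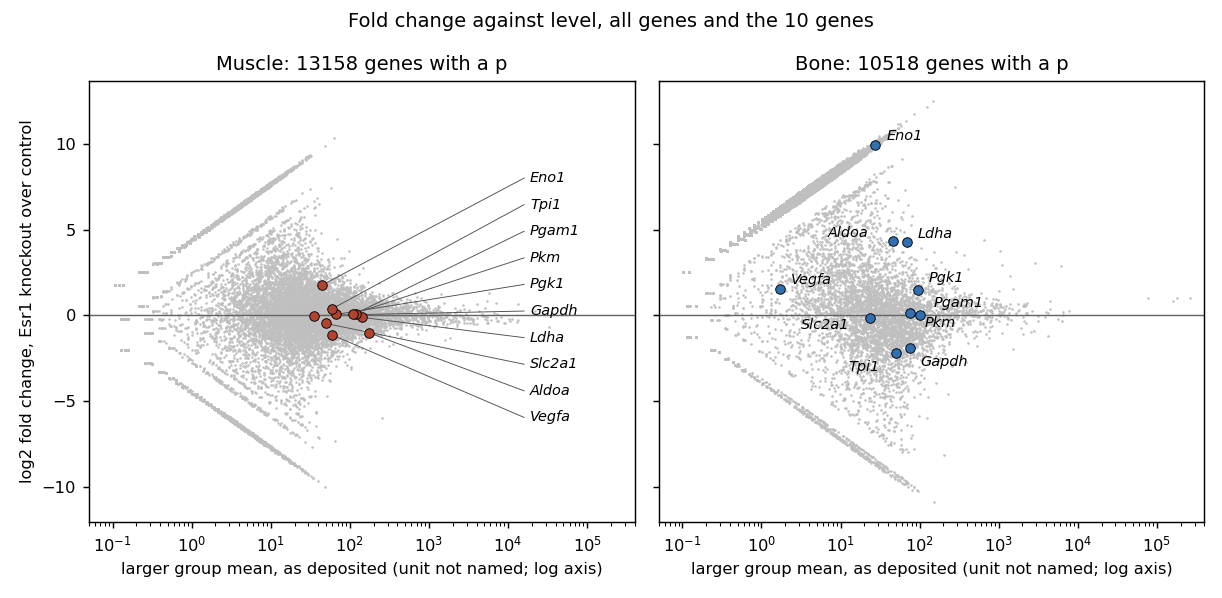
Log2 fold change, Esr1 knockout over control, against the larger group mean on a log axis, for every gene with a p (grey) and the 10 genes (coloured, named), in muscle (left) and bone (right). The outermost oblique bands are the steep edges. In bone Eno1, at 9.93, sits on the upper band, and the other 9 genes lie inside.

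Several of these genes have near-identical copies that a 3' read could also match. Stretches of 50 bases in the last 200 bases of Gapdh transcripts recurred in 156 other genes of GENCODE M21, of which 2 are in the tables, both listed at 0. Ldha shared such stretches with 13 other genes, Eno1 with 7, Aldoa and Pkm with 5 each and Tpi1 with 2. Of the Aldoa copies 1 was listed, with a larger group mean of 0.14 in muscle and 0.12 in bone. Pgk1, Pgam1, Slc2a1 and Vegfa shared none. For the Eno1 copy in the tables, Eno1b, the authors' deposited tables gave -0.56 for muscle (p = 0.748, larger group mean 30.3) and 0.062 for bone (p = 0.979, larger group mean 13.1). The sources used here do not say how reads that match several genes were placed, so the values of Gapdh, Ldha, Eno1, Aldoa, Pkm and Tpi1 are uncertain to that extent.

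The knockout effects in muscle and in bone were then set against each other gene by gene. No sample is shared between the tissues, and whether the 2 tables were normalized together is not stated. Each difference was tested from the authors' fold changes and their implied standard errors. The test treats the 2 effects as independent, and mice that may have given both tissues are not taken into account. None of the 10 differences passed after Benjamini-Hochberg adjustment over 9598 genes with a p in both tissues, and 0 genes in all did (0%). Unadjusted, 3 of the 10 had a p under 0.05 (24.6% of all genes did), and in each of them the muscle effect was the lower. For Aldoa the muscle minus bone difference computed from the authors' values was -5.37 on the log2 scale (interval -9.91 to -0.84, p = 0.0203, adjusted p = 0.136). For Ldha the authors' values gave -4.40 (interval -8.41 to -0.38, p = 0.0318, adjusted p = 0.163), and for Eno1, on the edge in bone, -8.16 (interval -15.4 to -0.91, p = 0.0274, adjusted p = 0.154). The difference for Pgam1 was 0.060 (interval -2.71 to 2.83) and that for Pkm was -0.077 (interval -3.33 to 3.18). Even these intervals span several doublings either way. The sign was the same in both tissues for 6 of the 10 genes.

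**Figure D3:**
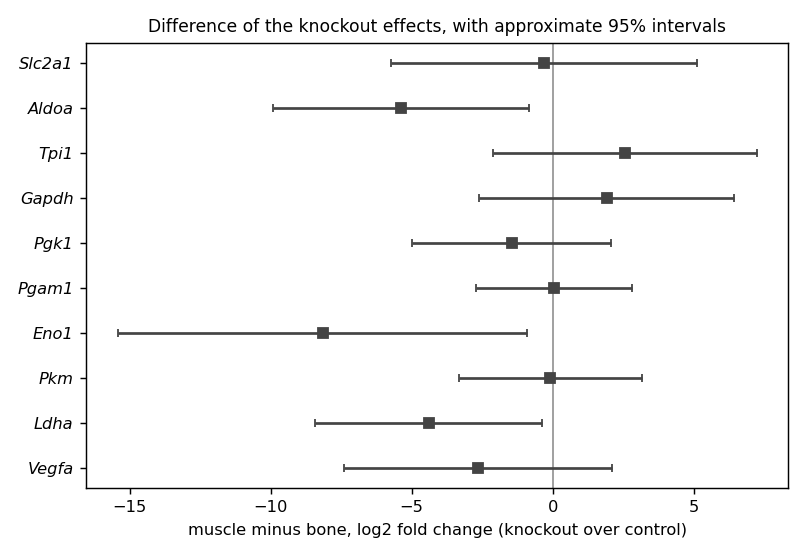
Difference between the log2 fold change in muscle and that in bone for each of the 10 genes, in pathway order, with approximate 95% intervals. Points left of 0 have the lower value in muscle. Intervals of Aldoa, Eno1 and Ldha lie left of 0, but none passed after adjustment over 9598 genes.

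Genes around the 10 were described from 7 lists of 129 different genes, 128 of them in the tables. These cover the remaining glycolytic enzymes, sugar and lactate carriers, oxygen sensing and other hypoxia-induced genes. They also cover VEGF ligands and receptors (with Pdgfa and Pdgfb), entry of pyruvate into mitochondria, and the branch pathways of glucose. Of the genes with an FDR (76 in muscle and 94 in bone), 1 was called in muscle and 0 in bone (0.127% and 0.0352% of all genes with an FDR were called). In bone the fold change of all genes varies with level, so each bone list is set beside the band of genes that holds its median level. Members of a list also lie in other bands, so the match is rough. At a larger group mean up to 10 the bone median was 4.99, with 84.3% of genes positive and 40.0% at an unadjusted p under 0.05. Above 10 to 20 it was 2.19 (68.6% positive, 46.9% at that p), and above 20 to 50 it was 0.015 (50.4% positive, 23.3% at that p). The called gene was Mxi1, a MAX-binding repressor gene on chromosome 19 that hypoxia-inducible factors are known to induce. In the authors' deposited muscle table it rose by 3.77 on the log2 scale (p = 2.11e-05, FDR = 0.0250, larger group mean 96.8, off the edge), with an implied standard error of 0.89. The authors' deposited bone table gave it 0.30 (p = 0.874). The muscle minus bone difference for Mxi1 from the authors' values was 3.47 (interval -0.56 to 7.50, adjusted p = 0.283). Some genes, such as Egln3 and Pfkfb4, stand in more than 1 list.

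Of the 33 hypoxia-induced genes with a p in muscle, Mxi1 included, 13 were positive, and the median log2 fold change was -0.15. Unadjusted p-values under 0.05 were seen for 3 genes with positive and 2 with negative values (6.41% and 5.31% of all genes). For Tfrc, the transferrin receptor gene, the authors' deposited muscle table gave -3.79 (p = 0.00762, FDR = 0.352). On the edge were Egln3, an oxygen-sensing prolyl hydroxylase gene, at -8.16 and Pfkfb4, whose enzyme sets the level of a glycolytic activator, at 8.05 in the authors' deposited muscle table (p = 0.00778 and 0.0126, no FDR). In bone 12 of 31 hypoxia-induced genes were positive, with a median of -0.28, where the median level of the list, 24.2, falls in the band above 20 to 50 with its median of 0.015. The 4 of smallest p there, Egln1, Hilpda, Egln3 and Angptl4, were listed at 7.36 to 8.72 in the authors' deposited bone table (FDR = 0.0784 to 0.0911), all on the edge.

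Glycolytic enzymes outside the 10 had a muscle median of -1.53 over 19 genes with a p, against 0.12 for all genes, with 7 positive. Unadjusted p-values under 0.05 belonged to 2 with positive and 7 with negative values (6.41% and 5.31% of all genes), 5 of the 9 on the edge, and none was called. Eno3 and Pgam2 of this list are also among the muscle fibre markers, and Bpgm among the red cell markers. In the authors' deposited muscle table Eno3 had -4.72 (p = 0.0306) and Pgam2 3.38 (p = 0.241). The part of muscle fibres in these values was not tested. For Bpgm, the mutase gene that makes the red cell regulator bisphosphoglycerate, the authors' deposited muscle table gave -4.70 (p = 0.000550, FDR = 0.150). Beside it the red cell genes Hba-a2, Hba-a1 and Hbb-bs stood at -1.41, -0.65 and -0.58 in the authors' deposited muscle table. Of the red cell markers, a list that includes Bpgm itself, 2 of 8 were positive. The part of red cells in the Bpgm value was not tested. Eno2, the neuronal enolase gene, stood at -7.71 on the edge in the authors' deposited muscle table (p = 0.0130, no FDR). For Adpgk, an ADP-dependent glucokinase gene, the authors' deposited tables gave 9.22 for muscle (p = 0.00219, FDR = 0.232) and 9.56 for bone (p = 0.00311, FDR = 0.0784), on the edge in both. In bone the list had a median of 2.55 over 14 genes, at a median level of 20.3, against 2.51 for all genes and 0.015 in the band above 20 to 50. It held 6 positive and 0 negative values at an unadjusted p under 0.05 (28.8% and 4.20% of all genes), 5 of the 6 on the edge. Ldhb, Pfkl and Minpp1 followed Adpgk there, at 6.26, 8.18 and 8.10 in the authors' deposited bone table (FDR = 0.0784 to 0.0816), of which Ldhb lay off the edge. Their larger group means were 8.95, 6.77 and 7.50. In the band up to 10 the bone median was 4.99, and 40.0% had an unadjusted p under 0.05 in either direction.

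Oxygen-sensing genes gave no call in either tissue. In muscle the 19 with a p had a median of 0.042 and 10 were positive. Rbx1, a subunit gene of the ubiquitin ligase that degrades hypoxia-inducible factors, stood at -1.03 in the authors' deposited muscle table (p = 0.0632, FDR = 0.885). In bone 13 of 18 were positive with a median of 0.81, at a median level of 20.7. In the band above 20 to 50, 50.4% were positive with a median of 0.015, while 69.7% of all bone genes were positive. A positive value with an unadjusted p under 0.05 was seen for 5 of the 18 (28.8% of all genes), 4 of them on the edge, and none had a negative one. In the band 23.3% had such a p in either direction. The one off it was Epas1, which encodes hypoxia-inducible factor 2 alpha, at 4.91 in the authors' deposited bone table (p = 0.0330, FDR = 0.101). Hif1an, the asparaginyl hydroxylase gene, was listed at 7.67 on the edge in the authors' deposited bone table (p = 0.0178, FDR = 0.0824).

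Sugar and lactate carriers beside Slc2a1 gave no call either. In muscle 6 of 10 were positive with a median of 0.23, and 0 had an unadjusted p under 0.05 (11.7% of all genes). In bone 7 of 10 were positive (69.7% of all genes) with a median of 1.80, at a median level of 11.8. In the band above 10 to 20, 68.6% were positive with a median of 2.19. The 3 of 10 with an unadjusted p under 0.05 (33.0% of all genes and 46.9% of that band) were all on the edge. These were Slc2a3, which encodes GLUT3, at 8.58, Slc2a10 at 6.27 and Slc2a8 at -7.70 in the authors' deposited bone table (FDR = 0.0784, 0.119 and 0.0822). Around Vegfa, 4 of 10 genes of the VEGF list, which also holds Pdgfa and Pdgfb, were positive in muscle with a median of -0.062. Kdr, the main VEGF receptor gene, and Pgf, the placental growth factor gene, were listed at 7.88 and 7.87 on the edge in the authors' deposited muscle table (p = 0.0130 and 0.0157, no FDR). In bone 5 of 8 of the VEGF list were positive (69.7% of all genes and 68.6% of the band above 10 to 20) with a median of 2.89. The median level was 11.1 and the median of that band was 2.19, although only Vegfc lay in it. Pdgfa and Pdgfb were among the 5, at 7.52 and 6.86 in the authors' deposited bone table. The rest of the list had Nrp1 at 10.04, Vegfb at 5.28, Nrp2 at 0.51, Flt1 at -1.15, Flt4 at -1.25 and Vegfc at -4.30. The coreceptor gene Nrp1 was listed at 10.04 on the edge in the authors' deposited bone table (p = 0.00216, FDR = 0.0784), and Pdgfa, a growth factor gene of the related PDGF family, at 7.52 off it (p = 0.00310, FDR = 0.0784).

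**Figure D4:**
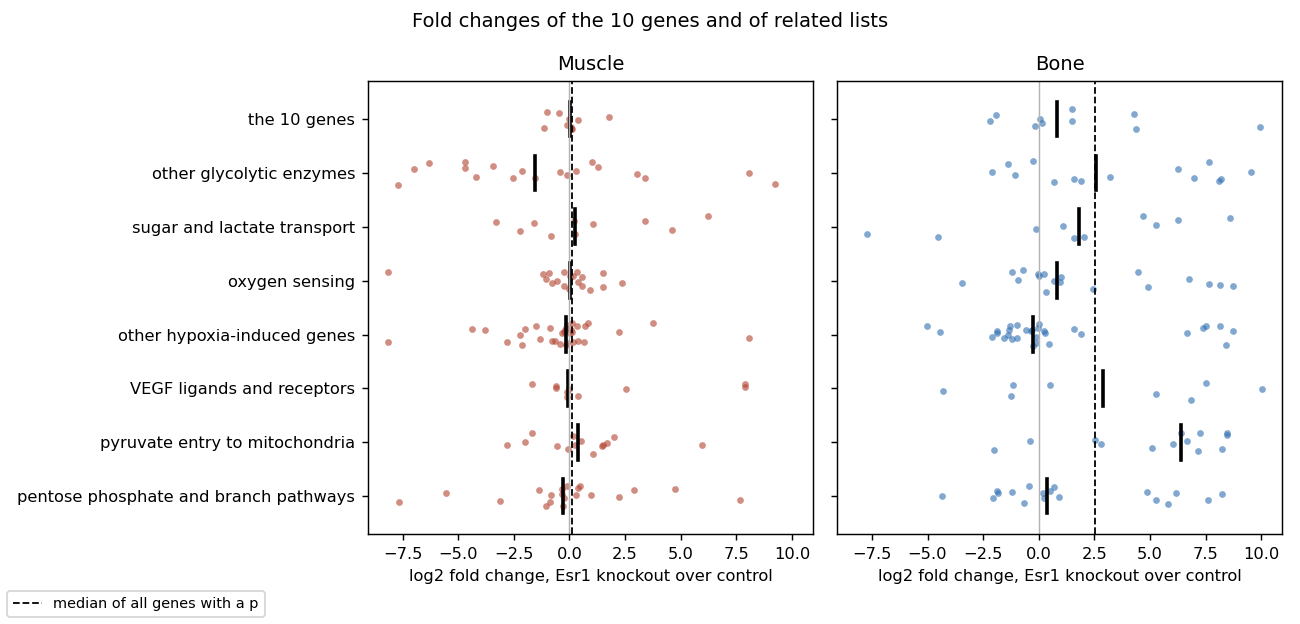
Log2 fold changes, Esr1 knockout over control, of the 10 genes and of 7 lists of related genes with a p, in muscle (left) and bone (right). Each point is a gene, the thick bar is the median of its list and the dashed line is the median of all genes (0.12 in muscle, 2.51 in bone). In bone the 10 genes have a median of 0.83, left of the dashed line. That line is not matched for level. Of the 10, 6 have a larger group mean above 50 to 100, where the median of all bone genes was -0.50. Another 3 lie above 20 to 50, where it was 0.015.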

How the data were processed

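Per the labels' protocols, RNA came from an RNeasy Plus Micro kit and sequencing libraries from Lexogen's QuantSeq chemistry, which reads 3' ends. GRCm38 and mm10 are the builds in the submitters' processing notes, but 97.8% of 25600 genes matched by ID start elsewhere in the deposited tables than in GENCODE M21 (GRCm38), so coordinates are from GENCODE. No aligner, counter or test is named in the sources used here. The log2 fold changes are the authors' values of knockout over control, per the file headers. Deposited p-values come in 3 forms, plain, FDR and Bonferroni, as the authors computed them. The larger group mean is a score without a named unit in the deposited tables. A signed linear fold change, also a score by the authors, was used only to check the log base. The 48 per-library columns match no label and were not used, so no count-based test was run. A gene was called at FDR 0.05. Implied standard errors, 95% intervals and the muscle against bone test assume a two-sided normal p, with Benjamini-Hochberg adjustment (scipy 1.17.1, pandas 2.3.3). The calculations were run on data simulated under that same normal model. Such a run checks the arithmetic and cannot check the assumption for these samples. Members, lists and tests were chosen with earlier results of these data known. Named were the 10 genes, every called gene of the pathway lists and up to 4 of smallest p per pathway list and tissue, beside Esr1 and Pdgfra. Of the marker lists only a few abundant genes are named. The called neutrophil marker in bone and the called stromal marker in muscle are counted but not named. Ptprc, Eno1b and the further list genes named to describe what a list holds were chosen after their values were seen. Alternatives were other adjustments, thresholds, level filters and centrings.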

Additional observations from a re-analysis of the deposited data

How the results depend on the processing

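The count of called genes among the 10 stayed 0 in muscle under all 6 alternatives of adjustment, threshold and level filter, of which a mean of at least 50 leaves out Eno1 and Gapdh and covers 8. In bone the authors' values gave 2 at an FDR of 0.1, 2 at an unadjusted p under 0.05 (Eno1 and Ldha in both), and 1 when adjusted over genes whose larger group mean reached 10 (Eno1, 0.0499 from the authors' p), where 14.1% of 5063 genes passed. It stayed 0 in bone under the other 3, 1 of which, a mean of at least 50, leaves out Eno1, Aldoa, Slc2a1 and Vegfa. Centring on the median of all genes with a p (0.12 in muscle, 2.51 in bone) turned the sign of Pgk1 (-0.070), Pgam1 (-0.015) and Pkm (-0.040) in muscle, and of Pgk1 (-1.02), Pgam1 (-2.47), Pkm (-2.36), Vegfa (-1.01) and Mxi1 (-2.22) in bone. None of these was called in the tissue concerned. Centring on genes whose larger group mean reached 100 turned none. The Mxi1 call in muscle was lost with the Bonferroni p (0.278). In the muscle against bone difference none of the 10 passed with centring, and none of 5 with a mean of at least 50 in both tissues, which leaves out Aldoa, Eno1, Gapdh, Slc2a1 and Vegfa. No paired analysis was possible because the per-library columns match no sample label, and for that reason no replicate could be left out, DESeq2 was not run, and depth limits cannot be stated.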

Other observations

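The step after glycolysis gave the highest list median in bone. Of 13 genes for the entry of pyruvate into mitochondria with a p, 11 were positive in the authors' deposited bone table and the median was 6.38 on the log2 scale, against 2.51 for all genes. The median level of the list was low, 7.67, and bone genes with a larger group mean up to 10 had a median of 4.99, with 84.3% positive and 40.0% at an unadjusted p under 0.05. In the list 8 of 13 had such a p, all with positive values (28.8% of all genes), 7 of them on the edge described for Eno1. Mpc1, a mitochondrial pyruvate carrier gene, had 8.45 and Pdhx, a pyruvate dehydrogenase subunit gene, had 8.21 in the authors' deposited bone table (p = 0.00956 and 0.00970), both on the edge. Pdha1, the catalytic subunit gene, had 6.03 off the edge in the authors' deposited bone table (p = 0.0124, FDR = 0.0787). None was called. In muscle the same list had a median of 0.39 over 14 genes with no unadjusted p under 0.05.

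Among the branch pathways, Phgdh, whose enzyme diverts a glycolytic intermediate to serine, was given 4.74 for muscle (p = 0.00670, FDR = 0.326) and 7.61 for bone (p = 0.0161, FDR = 0.0822, on the edge) by the authors' deposited tables. Psat1, the next enzyme of serine synthesis, had -7.68 on the edge in the authors' deposited muscle table (p = 0.0141, no FDR). Ugdh, which makes the sugar acid of matrix glycans, had -1.03 in the authors' deposited muscle table (p = 0.0213, FDR = 0.589, larger group mean 397.8), off the edge. None of these genes was called. In bone the branch list had 11 of 18 genes positive and a median of 0.38, at a median level of 28.2. In the band above 20 to 50, 50.4% were positive with a median of 0.015. An unadjusted p under 0.05 was seen for 3 of the 18, all positive and 2 on the edge (23.3% of the band in either direction).

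Among the named genes of the 7 pathway lists, Bpgm and Egln3 had the lowest adjusted p in the muscle against bone comparison (0.0810 for both), a value that the neutrophil marker S100a8 shared. For Egln3 the authors' deposited tables gave -8.16 for muscle and 8.13 for bone, on the edge in both, so its sizes are not estimates.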
